A study of Danio rerio with 12 samples.

Results

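The laminin and integrin genes of the zebrafish were examined in larvae with and without functional elmo2. Members were all genes whose symbol starts with lama, lamb or lamc and a digit, or with itga or itgb and a further character, except the itgb1bp genes. This rule gave 50 of the 32520 genes in the files, 14 laminin genes and 36 integrin genes. The rule used names only and no measured value. Each of the 12 samples was a pool of 30 whole larvae at 120 hours post fertilization (hpf), 6 pools elmo2-/- and 6 pools elmo2+/+. The elmo2-/- larvae carried a frameshift deletion made with CRISPR/Cas9, and the line was raised in Tg(fli1:EGFP), a reporter that marks endothelial cells with EGFP and that both genotypes share. The study set out to find pathways that the loss of Elmo proteins alters. Labels give no parents or clutches for the pools, so p-values measure only the spread between pools. Library numbers in the labels run from 1 to 6 for the elmo2+/+ pools. The elmo2-/- pools have the numbers 13, 14, 15, 16, 7 and 8, in the order of their replicate numbers. Any effect of the library number and that of the genotype cannot be told apart.

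Laminins are the sheet-forming proteins of basement membranes. Each laminin is a trimer of an alpha, a beta and a gamma chain, and different chains are used under epithelia, around muscle fibres and around vessels. Integrins are cell surface receptors built of an alpha and a beta subunit, which decide together whether the receptor binds laminin, collagen, RGD-containing proteins such as fibronectin and vitronectin, or ligands on other cells. Elmo proteins act with Dock proteins as an activator of the small GTPase Rac, which drives actin remodelling and cell movement downstream of integrins and other receptors. By role the members were 5 alpha, 6 beta and 3 gamma laminin chains, 22 integrin alpha subunits and 12 integrin beta subunits. The remaining pair are ITGBL1, a secreted integrin beta-like protein that is no receptor subunit, and itgb3bp, named for binding integrin beta3 and also a centromere protein. Symbols in capitals are human-style names given to zebrafish genes. ITGB1 stands for 4 genes, and ITGB3, ITGA11 and LAMB1 for 2 genes each, which are told apart by their Ensembl identifiers, and reads of such near copies may have been divided between them when the counts were estimated.

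The pools held between 20116203 and 20939679 estimated counts. The targeted gene elmo2 (ENSDARG00000063527) lay at 31.4 to 51.6 CPM in elmo2-/- and at 56.3 to 92.4 CPM in elmo2+/+. CPM are counts scaled to a common library size. The groups did not overlap, and the direction matched the labels (log2 fold change -0.93, standard error 0.15, edgeR adjusted p = 0.642, exact two-sided permutation p = 0.00216, the smallest that 6 pools against 6 allow). Markers were fixed for muscle, epidermis, leukocytes, thrombocytes, endothelium, cartilage, notochord, neurons, liver and intestine. Not all were found by symbol, with 4 genes for 6 leukocyte markers, 3 for 4 thrombocyte markers and 4 for 5 endothelial markers. A symbol without a match was searched without its paralog letter, which can give several genes. The 5 muscle genes thus include both TNNT3 genes but not mylpfa. Of the genes found, 0 were at 0 in every pool.

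Some pools stood apart in the laminin and integrin genes, among them replicate 1 of both genotypes. Among the 45 members that passed the filter on low counts, elmo2-/- replicate 1 was the highest of the 12 pools for 16 and elmo2+/+ replicate 1 for 12. Both replicate 1 pools together held the 2 highest values for 19 members (42.2%, against 9.54% of all genes tested). The highest pool was a replicate 1 pool for 28 members (22.8% of all genes), and the lowest was a replicate 6 pool for 24 (27.1% of all genes). Of these, elmo2-/- replicate 6 made up 18 (40% of members, against 11.4% of all genes). The elmo2+/+ replicate 6 pool made up only 6 (13.3%, against 15.7%). Few members lay above their mean in either, 9 in elmo2-/- replicate 6 and 8 in elmo2+/+ replicate 6 (49.9% and 49.8% of all genes). The labels do not say that pools of 1 number were collected together. Values without elmo2-/- replicate 1, the pool that was highest most often, are given below for some of the genes only. That fit is not balanced, because it keeps elmo2+/+ replicate 1, which was also high. With each pool left out in turn, the log2 fold change ran from -0.55 to -0.19 for lama2 and from -0.44 to -0.14 for lamc3. It ran from -0.59 to -0.0031 for ITGA4 and from -0.41 to 0.094 for ITGA9.

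**Figure D1:**
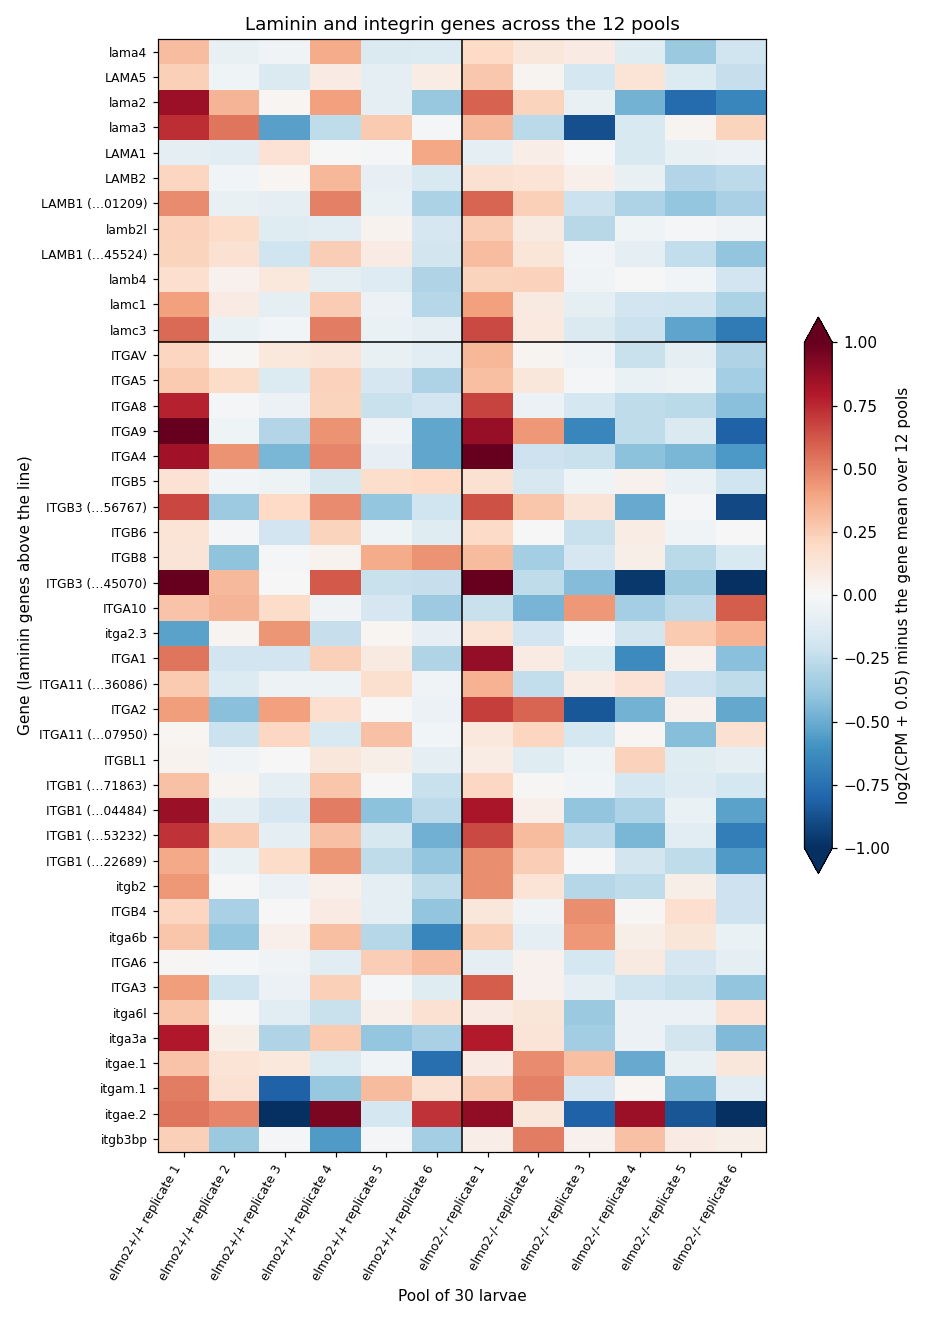
Each of the 44 rows is a tested laminin or integrin gene and each column a pool, and the colour gives log2(CPM + 0.05) minus the mean of the gene over the 12 pools. Columns run from replicate 1 to 6 of elmo2+/+ and then of elmo2-/-. Replicate 1 of both genotypes is red in most rows and replicate 6 is blue in many. Many rows thus turn from blue to red at the line, where elmo2+/+ replicate 6 meets elmo2-/- replicate 1. The values of the genotypes overlap in every row.

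The levels of the laminin genes named the chains that larvae of this age transcribed most. TPM, which takes transcript length into account, was used to compare genes with each other. The gamma chains were led by lamc1, the gamma chain of most laminin trimers, with a mean of 14.9 TPM over the 12 pools. It made up 68.7% of all gamma chain TPM, and this share stayed between 63.7% and 73.7% in single pools. lamc3 had 6.18 TPM and 27.9% of gamma chain TPM.

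Among the alpha chains the highest was lama4, a chain of vessel and muscle basement membranes, with 9.04 TPM and 43.7% of alpha chain TPM. LAMA5, a broad epithelial and vascular chain, had 4.86 TPM, lama2, the chain of muscle basement membrane whose loss causes congenital muscular dystrophy, had 3.28 TPM and lama3, an epidermal chain, had 2.21 TPM. The lowest was LAMA1, the chain of early embryonic basement membranes, with 1.40 TPM. In CPM, which leave out length, LAMA1 had a mean of 11.2 and lama2 of 6.40, so their order depends on the transcript lengths used. The beta chains were spread more evenly. LAMB2 had 10.4 TPM and 31.8% of beta chain TPM, followed by LAMB1 (ENSDARG00000101209) with 7.62 TPM, lamb2l with 7.10 TPM, LAMB1 (ENSDARG00000045524) with 3.90 TPM and lamb4 with 3.58 TPM. LAMB2 and lamb2l are direct neighbours among protein-coding genes in the gene order of RefSeq (assembly GRCz12tu). lamb3, an epidermal beta chain, had only 0.264 TPM and did not pass the filter.

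The sums of the chains were similar in both genotypes. Alpha chains summed to 19.5 ± 4.30 TPM in elmo2-/- pools and 22.1 ± 4.15 TPM in elmo2+/+ pools (SD, n = 6 each). Beta chains summed to 31.6 ± 7.48 TPM and 34.0 ± 5.40 TPM. Gamma chains summed to 20.7 ± 6.83 TPM and 22.9 ± 5.09 TPM. In each case the difference was smaller than the SD of either genotype.

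Of the integrin alpha subunits, ITGAV, which pairs with several beta subunits to bind RGD-containing matrix, had the highest level, 26.9 TPM and 32.5% of integrin alpha TPM. It was followed by itga6b, one of the alpha6 subunits that bind laminin, with 19.7 TPM and 23.9%. The collagen-binding subunit ITGA10, known from cartilage, had 5.41 TPM, ITGA6 had 4.62 TPM and ITGA3, another laminin-binding subunit, 4.07 TPM. The fibronectin receptor subunit ITGA5 had 2.46 TPM. The lowest alpha subunits were the platelet subunit itga2b with 0.144 TPM and the leukocyte subunits itgam.2 with 0.186 TPM and itgae.2 with 0.195 TPM, which lay within each other's spread between pools.

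The beta subunits were led by ITGB1 (ENSDARG00000071863), a copy of the common beta1 subunit that pairs with most alpha subunits, with 17.1 TPM. The other beta1 genes had 11.04 TPM (ENSDARG00000104484), 7.95 TPM (ENSDARG00000053232) and 6.89 TPM (ENSDARG00000022689). ITGB4, the partner of alpha6 in hemidesmosomes that fix the epidermis to its basement membrane, had 11.7 TPM, and the alphaV partner ITGB5 had 8.16 TPM. The leukocyte beta subunit itgb2 had 2.72 TPM and itgb7 0.167 TPM. ITGBL1 had 25.4 TPM and was the steadiest of the members across pools, with the highest pool 1.28 times the lowest in CPM.

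**Figure D2:**
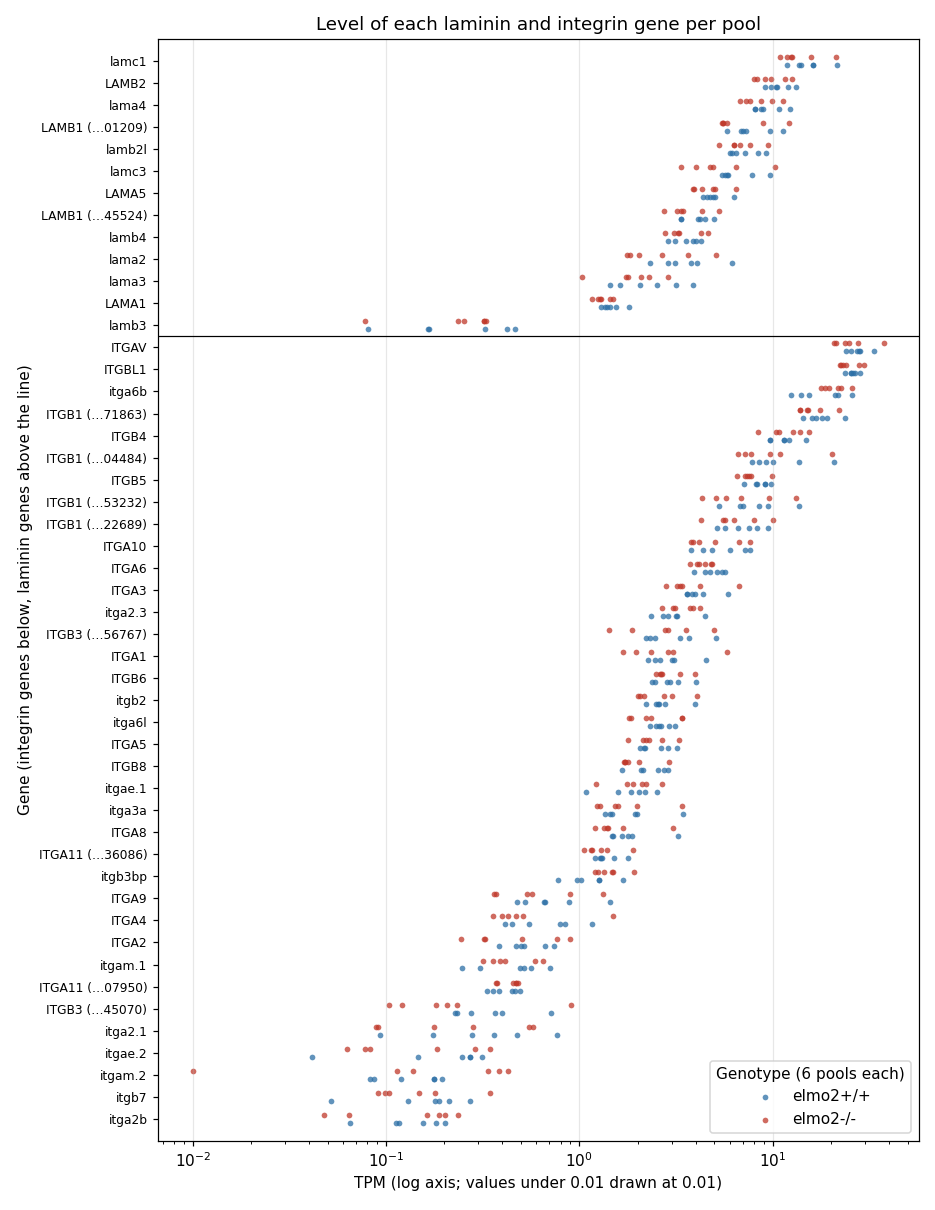
TPM of 49 genes on a log axis, 1 point per pool, with elmo2-/- in red and elmo2+/+ in blue and the 5 last digits of the identifier where genes share a symbol. The point at 0.01 is a pool of elmo2-/- with 0 TPM of itgam.2. Points of both colours overlap for each gene, and the means run from 0.144 TPM for itga2b to 26.9 TPM for ITGAV.

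No laminin or integrin gene differed between elmo2-/- and elmo2+/+ larvae by the test used. Of the 45 members tested 0 had an adjusted p under 0.05 (edgeR quasi-likelihood F-test, adjusted after Benjamini and Hochberg), as was so for all 22259 genes tested (0.0%). At an unadjusted p under 0.05 there were 0 members, where 4.68% of all genes passed, and DESeq2 likewise called 0 members at an adjusted p under 0.05. The CPM of the genotypes overlapped for each of the 45 members, where 0.198% of all genes showed no overlap. The smallest unadjusted edgeR p of a member was 0.103, for itgb3bp, and every adjusted p of a member was 0.9997. In bulk RNA of whole larvae, fewer cells of a type and less RNA per cell cannot be told apart, for these genes as for any other.

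The intervals show which differences the data leave possible. The log2 fold changes of elmo2-/- against elmo2+/+ were lowest for lama2, at -0.36, and 37 of 45 were smaller than 0.2 in either direction. The 95% interval lay within a factor of 2 in either direction for 42 members, and within 0.5 on the log2 scale for 26. The intervals of itgae.2 and of the ITGB3 gene ENSDARG00000045070 were wider than a factor of 2, and these genes had as few as 2 and 5 counts in their lowest pools. For 44 members the difference was smaller than the SD of log2 CPM within a genotype, and the median of that SD was 0.27 for members and 0.20 for all genes.

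**Figure D3:**
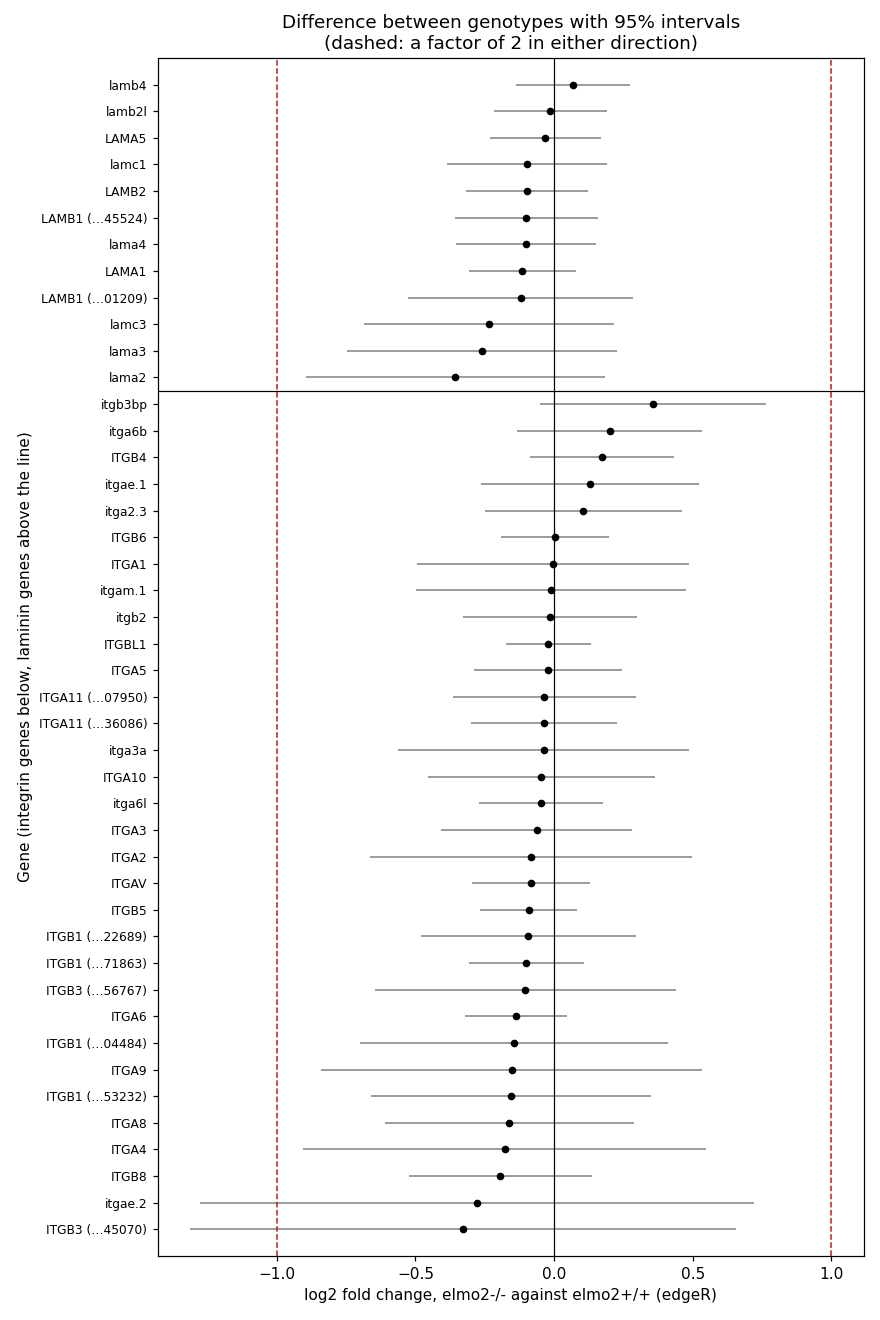
Log2 fold change of elmo2-/- against elmo2+/+ from edgeR for 44 genes, with 95% intervals and dashed lines at a factor of 2. Every interval includes 0, and those of itgae.2 and ITGB3 (ENSDARG00000045070) reach past a dashed line.

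The signs of these small differences were uneven. The value was lower in elmo2-/- for 37 of 45 members (82.2%), 11 of 13 laminin and 26 of 32 integrin genes, where 50.2% of all genes had a lower value. The median log2 fold change was -0.10 for laminin genes, -0.055 for integrin genes and -0.00061 for all genes. The members moved together between pools, so their signs are not separate observations. The count depended on which pools were compared, and ran from 22 to 38 with each pool left out in turn. Without elmo2+/+ replicate 1 it was 22 of 45, in a fit that kept the high elmo2-/- replicate 1. With elmo2-/- libraries 13 to 16 alone it was 16 of 46, with medians of 0.0083 for laminin and 0.028 for integrin genes. With elmo2-/- libraries 7 and 8 alone it was 38 of 46. Without both replicate 1 pools, which was chosen after the data were seen, it was 35 of 44, and without both replicate 6 pools 35 of 46.

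The laminin alpha chains had lower values in elmo2-/- for all 5 genes, and none passed the test. For lama2 the elmo2-/- pools had a lowest, median and highest value of 3.53, 5.04 and 9.13 CPM, and the elmo2+/+ pools 4.65, 6.90 and 11 CPM. The highest value of each genotype was in replicate 1, and the 3 lowest pools of all were elmo2-/- replicates 4, 5 and 6. The log2 fold change was -0.36 (95% interval -0.89 to 0.18, exact permutation p = 0.247). Without elmo2-/- replicate 1 it was -0.55, with an unadjusted edgeR p of 0.0331 and an adjusted p of 0.662. Over the fits with each pool left out in turn it ran from -0.55 to -0.19.

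lama4 had 35.4, 45.3 and 52.5 CPM in elmo2-/- (lowest, median, highest) and 41.4, 44.0 and 59.1 CPM in elmo2+/+. The medians lay close together and the groups overlapped over most of their range (log2 fold change -0.10, 95% interval -0.35 to 0.15). LAMA5 had 39.7, 44.8 and 56.1 CPM against 42.0, 47.0 and 54.7 CPM (log2 fold change -0.031, standard error 0.094). LAMA1 differed from the other alpha chains in its pattern over pools. Its values were 10.01, 10.6 and 11.6 CPM in elmo2-/- and 10.3, 11.05 and 14.6 CPM in elmo2+/+. The replicate 1 pools of LAMA1 were at 0.920 times the others, and its highest pool was elmo2+/+ replicate 6. That pool was the highest of the 12 for 4 members (8.89%, against 16.8% of all genes) and the lowest for 6 (13.3%, against 15.7%). The log2 fold change of LAMA1 was -0.11 (standard error 0.090).

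Of the 5 beta chains tested 4 had lower values in elmo2-/-, and none passed the test. LAMB2 had 37.5, 45.6 and 51.0 CPM in elmo2-/- and 41.3, 45.7 and 57.9 CPM in elmo2+/+, with nearly equal medians (log2 fold change -0.098, standard error 0.10). LAMB1 (ENSDARG00000101209) had 24.6, 26.9 and 48.3 CPM against 25.8, 30.6 and 45.6 CPM. This LAMB1 gene had a wide spread in both genotypes, and its log2 fold change of -0.12 had a standard error of 0.19. The log2 fold change ran from -0.28, without elmo2-/- replicate 1, to -0.028 with each pool left out in turn. For lamb4 the value was higher in elmo2-/- by 0.068 (standard error 0.096).

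The gamma chain lamc1 had 59.0, 66.5 and 97.4 CPM in elmo2-/- and 60.1, 73.9 and 97.6 CPM in elmo2+/+. The genotypes covered the same range, with replicate 1 highest and replicate 6 lowest in both (log2 fold change -0.098, 95% interval -0.39 to 0.19, exact permutation p = 0.528). With each pool left out in turn the log2 fold change ran from -0.20, without elmo2-/- replicate 1, to -0.018. lamc3 had 14.5, 21.0 and 37.6 CPM in elmo2-/- and 22.3, 23.0 and 35.2 CPM in elmo2+/+. Here 4 of the elmo2-/- pools lay under the lowest elmo2+/+ pool, while the highest of all was elmo2-/- replicate 1 (log2 fold change -0.24, 95% interval -0.69 to 0.22). Without that pool the value was -0.44, with an unadjusted edgeR p of 0.0217 and an adjusted p of 0.655. Over the fits with each pool left out in turn it ran from -0.44 to -0.14.

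The laminin receptors showed values in both directions. For itga6b the elmo2-/- pools had 39.8, 45.1 and 57.1 CPM and the elmo2+/+ pools 26.9, 39.3 and 52.3 CPM. The 3 lowest pools were all elmo2+/+, replicates 2, 5 and 6, but replicates 1 and 4 of that genotype were among the 3 highest (log2 fold change 0.20, 95% interval -0.13 to 0.53, exact permutation p = 0.266). As a share of integrin alpha TPM, itga6b made up 25.9 ± 2.79% in elmo2-/- pools and 21.8 ± 3.44% in elmo2+/+ pools (SD, n = 6 each).

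ITGB4, with which alpha6 forms the hemidesmosome receptor, had 56.4, 68.1 and 90.0 CPM in elmo2-/- and 49.5, 63.0 and 75.8 CPM in elmo2+/+. The groups overlapped, with elmo2-/- replicate 3 highest for both ITGB4 and itga6b (log2 fold change of ITGB4 0.17, 95% interval -0.088 to 0.43). In TPM the ITGB4 difference was smaller, with means of 11.9 in elmo2-/- and 11.6 in elmo2+/+. With limma on log2(TPM + 1) its log2 fold change was 0.031, and that of itga6b was 0.22. Another alpha6 gene, ITGA6, had 13.1, 13.8 and 15.7 CPM against 13.7, 14.8 and 18.3 CPM. Its value was lower in elmo2-/- (log2 fold change -0.14, 95% interval -0.32 to 0.045), and like LAMA1 it was highest in elmo2+/+ replicate 6. The alpha3 genes ITGA3 and itga3a, which encode further laminin receptors, had log2 fold changes of -0.063 and -0.038, and their highest elmo2-/- pool was replicate 1, with 17.0 CPM for ITGA3 and 9.09 CPM for itga3a. Without this pool the log2 fold changes were -0.23 and -0.25. With each pool left out in turn they ran up to 0.021 for ITGA3 and 0.17 for itga3a.

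The 4 beta1 genes had lower values in elmo2-/-, from -0.16 to -0.093 on the log2 scale, and none passed the test. ITGB1 (ENSDARG00000071863) had 70.2, 75.2 and 91.5 CPM in elmo2-/- and 68.0, 80.1 and 97.1 CPM in elmo2+/+, with a highest value 1.43 times the lowest over the 12 pools (log2 fold change -0.10, standard error 0.097, and -0.16 without elmo2-/- replicate 1). With each pool left out in turn its log2 fold change ran from -0.16 to -0.049. ITGB1 (ENSDARG00000104484) varied more, with 8.15, 10.4 and 21.0 CPM against 8.91, 10.8 and 21.6 CPM, a factor of 2.65. In both genotypes its highest pool was replicate 1 (log2 fold change -0.14, standard error 0.26, and -0.39 without elmo2-/- replicate 1). Over the fits with each pool left out in turn this log2 fold change ran from -0.39 to 0.055. The beta1 genes therefore did not keep a fixed ratio. The share of ENSDARG00000071863 in beta1 TPM was 33.8% in elmo2-/- replicate 1 and 47.5% in elmo2-/- replicate 6, and its mean was 41.2 ± 4.82% over the elmo2-/- pools and 40.5 ± 3.62% over the elmo2+/+ pools (SD, n = 6 each).

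ITGAV had 69.2, 81.8 and 108 CPM in elmo2-/- and 79.1, 89.0 and 99.3 CPM in elmo2+/+. The elmo2+/+ pools lay inside the range of the elmo2-/- pools (log2 fold change -0.083, 95% interval -0.30 to 0.13, exact permutation p = 0.457). The log2 fold change of ITGAV ran from -0.17, without elmo2-/- replicate 1, to -0.037 with each pool left out in turn. Its partner ITGB5 had 19.1, 21.1 and 24.3 CPM against 19.6, 22.8 and 25.1 CPM (log2 fold change -0.092, standard error 0.082). ITGB3 (ENSDARG00000056767), the beta3 subunit that pairs with ITGAV, had 3.01, 5.90 and 8.86 CPM against 4.33, 5.74 and 9.08 CPM. This spread was far wider than the difference of -0.10, which ran from -0.27, without elmo2-/- replicate 1, to 0.039 with each pool left out in turn. ITGA5 had 8.41, 10.5 and 13.2 CPM against 8.61, 10.9 and 12.8 CPM, nearly the same in both genotypes (log2 fold change -0.022, standard error 0.12). The alpha4 and alpha9 genes, which bind fibronectin and cell surface ligands, were lower in level. ITGA4 had 1.04, 1.25 and 3.56 CPM against 1.08, 1.82 and 2.84 CPM, and ITGA9 1.19, 1.84 and 3.93 CPM against 1.47, 2.06 and 4.31 CPM. Their log2 fold changes of -0.18 and -0.15 had standard errors of 0.34 and 0.32. Without elmo2-/- replicate 1 the value of ITGA4 was -0.59, with an adjusted p of 0.668 in edgeR, and that of ITGA9 -0.41. At the other end, with each pool left out in turn, the values were -0.0031 for ITGA4 and 0.094 for ITGA9.

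The collagen receptors had small differences, with a median log2 fold change of -0.036 over 6 genes, of which 5 had lower values in elmo2-/- and none passed the test. ITGA10 had 17.6, 20.5 and 37.0 CPM in elmo2-/- and 18.9, 25.7 and 30.8 CPM in elmo2+/+. Its high elmo2-/- pools were replicates 3 and 6, not replicate 1 (log2 fold change -0.046, standard error 0.19). ITGA1 had a log2 fold change of -0.0037 with a standard error of 0.23, and its elmo2-/- replicate 1 pool stood at 15.1 CPM, above the next at 8.66 CPM. The log2 fold change of ITGA1 ran from -0.25, without that pool, to 0.11 with each pool left out in turn. For itga2.3 the values were 2.17, 2.60 and 3.17 CPM against 1.70, 2.43 and 3.39 CPM (log2 fold change 0.11, standard error 0.17), and its replicate 1 pools were at 0.858 times the others, the lowest such ratio of the members.

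The leukocyte subunits were low and did not pass the test. itgb2, the common beta subunit of leukocyte integrins, had 6.10, 7.09 and 10.3 CPM against 6.21, 7.27 and 10.04 CPM (log2 fold change -0.014, standard error 0.15). itgae.1 and itgam.1 had log2 fold changes of 0.13 and -0.012 with standard errors of 0.18 and 0.23. The summed TPM of the 4 leukocyte markers found was 34.3 to 50.6 in elmo2-/- and 42.4 to 57.4 in elmo2+/+, none of them at 0. Of these markers lyz, the lysozyme of neutrophils and macrophages, had a lower value in elmo2-/- (log2 fold change -0.34, unadjusted edgeR p = 0.0189, exact permutation p = 0.0216). The others did not follow it, with log2 fold changes of 0.049 for ptprc, 0.029 for CORO1A and -0.076 for LCP1. With a mean of 29.5 TPM over the 12 pools lyz also weighed most in the summed TPM. ITGBL1 had 21.9, 22.7 and 28.1 CPM against 22.3, 24.2 and 25.9 CPM (log2 fold change -0.021, standard error 0.072). itgb3bp had 0.717, 0.733 and 1.01 CPM in elmo2-/- and 0.453, 0.613 and 0.825 CPM in elmo2+/+. The groups overlapped, and its log2 fold change of 0.36 (95% interval -0.050 to 0.76) had an unadjusted exact permutation p of 0.0455, not adjusted for the 45 genes tested, on as few as 9 counts in a pool.

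The genes that did and did not follow the replicate 1 pools were described for all members. The ratio of the mean of both replicate 1 pools to the mean of the other 10 had a median of 1.26 over members. It ran from 0.858 for itga2.3 to 3.07 for ITGB3 (ENSDARG00000045070), a gene with 0.260 to 1.92 CPM. High ratios were also found for ITGA4 (2.28), ITGA9 (2.13), ITGB1 ENSDARG00000104484 (1.98), itga3a (1.93), ITGA8 (1.82) and ITGA1 (1.79). Others were those of lama2 (1.78), ITGB1 ENSDARG00000053232 (1.73), ITGB3 ENSDARG00000056767 (1.67) and lamc3 (1.63), and the list is not complete. ITGB5 (1.13), ITGBL1 (1.04), ITGA10 (1.01) and ITGA6 (0.958) were close to 1.

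Several marker lists moved with these pools. As a mean of log2 CPM against each gene's mean over the 12 pools, the endothelial markers stood at 0.44 in elmo2-/- replicate 1 and 0.42 in elmo2+/+ replicate 1, and the cartilage markers at 0.33 and 0.40. The skeletal muscle markers stood at -0.26 in both, and the neuron markers at -0.31 and -0.25. The medians of the laminin genes were 0.31 and 0.23 and those of the integrin genes 0.32 and 0.29 in the same pools. In elmo2-/- replicate 6 the laminin and integrin medians were both -0.23, the endothelial markers were at -0.26 and the liver markers at -1.17. The liver markers were at -1.09 in elmo2+/+ replicate 6, and at 0.74 and 0.43 in the replicate 1 pools. High values were not limited to replicate 1. In elmo2+/+ replicate 4 the laminin and integrin medians were 0.26 and 0.19, endothelium 0.27, cartilage 0.36, liver 1.07, muscle 0.062 and neurons -0.19. Liver stood at 0.69 in elmo2-/- replicate 2 (laminin 0.098, integrin 0.049) and at -0.78 in elmo2+/+ replicate 5 (laminin -0.068, integrin -0.040). Other lists did not move alike in both replicate 1 pools or stayed near 0, with 0.25 and -0.0034 for leukocytes, 0.17 and 0.052 for thrombocytes, 0.12 and -0.0011 for notochord, 0.030 and -0.010 for epidermis, while intestine was at 0.14 and 0.34.

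Between genotypes the marker sums overlapped. The 4 endothelial markers found of 5 summed to 55.0 to 115 TPM in elmo2-/- and 59.4 to 99.6 TPM in elmo2+/+. The 5 cartilage genes summed to 285 to 427 TPM and 346 to 467 TPM. The 5 muscle genes summed to 30656 to 43843 TPM and 31234 to 39695 TPM, and the 6 neuron genes to 801 to 942 TPM and 735 to 999 TPM. None of these genes was at 0 in every pool. FLI1 (61.8 TPM) weighed most in the endothelial sum and COL2A1 (ENSDARG00000069093, 222 TPM) in the cartilage sum. Values were lower in elmo2-/- for all 5 cartilage genes (median log2 fold change -0.22) and all 4 endothelial genes (-0.091). They were lower for 1 of 5 muscle genes (median 0.11) and 2 of 6 neuron genes (0.034), where 50.2% of all genes had a lower value. Single markers with an unadjusted edgeR p under 0.05 were, beside lyz, the muscle gene TNNT3 (ENSDARG00000030270, log2 fold change 0.28, p = 0.0307 in edgeR across all genes, exact permutation p = 0.0584) and the intestinal gene FABP6 (0.31, p = 0.00992 and exact p = 0.0281), named after their values were seen. The part of tissue composition in the laminin and integrin values was not tested.

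**Figure D4:**
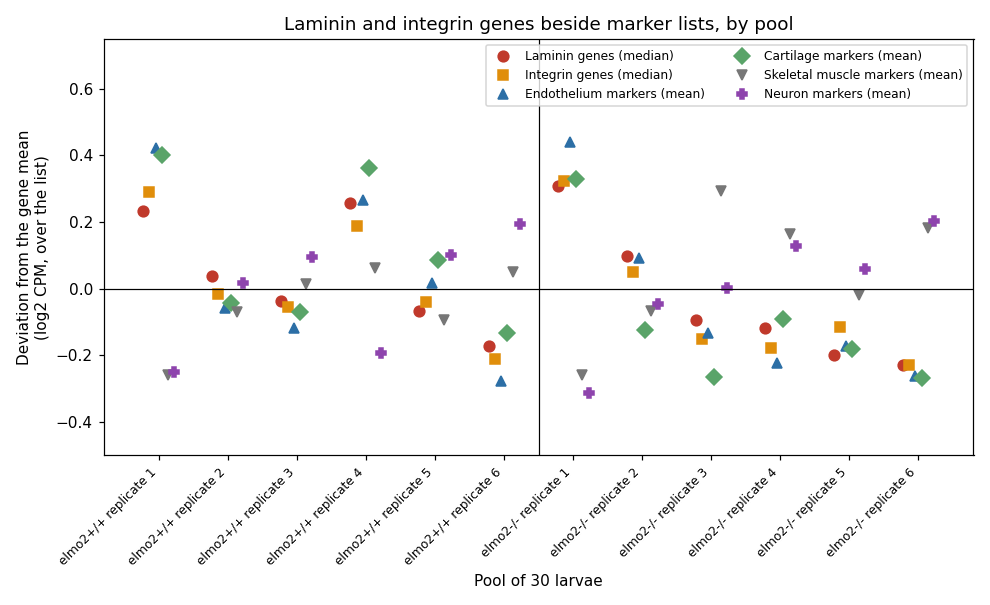
Deviation of each pool in log2 CPM from the mean over 12 pools, as the median over laminin and over integrin genes and as the mean over 4 marker lists. The laminin, integrin, endothelium and cartilage points lie above 0 in both replicate 1 pools, where the muscle and neuron points lie below it.

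Lower values in elmo2-/- were also more frequent among the matrix partners, whereas signs were more even among the proteins linked to integrins. Of 35 genes for basement membrane and matrix partners (nidogens, perlecan, dystroglycan, fibronectin and others) 34 were tested. In edgeR 0 had an adjusted p under 0.05, and likewise 0 an unadjusted one, where 4.68% of all genes passed. By the unadjusted exact permutation test 2 did, DAG1 and TNC (ENSDARG00000021948, exact permutation p = 0.0433). The share of all genes that passed this exact test is not given, so the 2 cannot be judged against it. The other TNC gene (ENSDARG00000078362) had a log2 fold change of 0.011 (exact permutation p = 0.911). Of the 34 genes 29 had lower values in elmo2-/-, against 50.2% of all genes, with a median log2 fold change of -0.094. With elmo2-/- libraries 13 to 16 alone 23 did, a larger part than among the members. With each pool left out in turn the number ran from 24, without elmo2+/+ replicate 1, to 31, without elmo2-/- replicate 1. As a mean deviation in log2 CPM this list stood at 0.35 and 0.31 in the replicate 1 pools of elmo2-/- and elmo2+/+ and at -0.34 in elmo2-/- replicate 6. The smallest edgeR p in this list was that of DAG1, dystroglycan, a laminin receptor of muscle that is not an integrin. DAG1 had 87.8, 92.4 and 98.5 CPM in elmo2-/- and 91.3, 104 and 107 CPM in elmo2+/+ (log2 fold change -0.12, standard error 0.058, edgeR p = 0.0580, exact permutation p = 0.0368). FN1 (ENSDARG00000006526), fibronectin, was the highest of this list at 47.3 TPM, with 89.5, 146 and 292 CPM against 84.7, 161 and 310 CPM, so that its log2 fold change of -0.075 had a standard error of 0.35. SGCB, a sarcoglycan of the muscle membrane, had 38.4 TPM and a log2 fold change of 0.048 (standard error 0.084).

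Of 39 genes for cytoplasmic and membrane proteins linked to integrins 38 were tested. None passed at an adjusted edgeR p under 0.05, and 1 lower and 2 higher genes had an unadjusted edgeR p under 0.05 (4.68% of all genes). Lower values were found for 22 (50.2% of all genes), with a median of -0.016, and for 16 without elmo2+/+ replicate 1. The higher genes were CD151 (ENSDARG00000038288), a tetraspanin that binds laminin-binding integrins, and pleca, a plectin that ties hemidesmosomes to keratin filaments. This CD151 gene was at 7.06 ± 1.29 CPM in elmo2-/- pools and 5.71 ± 0.588 CPM in elmo2+/+ pools (SD, n = 6 each, log2 fold change 0.31, edgeR p = 0.0224, exact permutation p = 0.0238), while the other CD151 gene (ENSDARG00000068629) had a log2 fold change of -0.0039. pleca was at 129 ± 4.71 CPM and 118 ± 7.92 CPM (log2 fold change 0.12, edgeR p = 0.0459, exact permutation p = 0.0216). The lower gene was tns2a, a tensin that links integrins to actin, at 7.30 ± 2.36 CPM and 9.92 ± 2.26 CPM (log2 fold change -0.44, edgeR p = 0.0401, exact permutation p = 0.0844). CD81 (ENSDARG00000036080), a tetraspanin, and actn4, an actinin, had the highest levels of this list, 220 and 46.7 TPM, with log2 fold changes of -0.067 and -0.049. None of these p-values is adjusted, and the adjusted edgeR p of each gene named from both lists was 0.9997.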

How the data were processed

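Total RNA of pools of whole larvae was sequenced on a BGISEQ-500. The authors deposited, per gene and sample, estimated counts, which need not be whole and keep the depth of each sample, and TPM values, which also account for transcript length. The submitters' processing notes name Trim Galore 0.6.4, kallisto 0.4.6 and the build GRCz11. Other settings are not given in the sources used here. Symbols were matched to 29201 of 32520 identifiers.

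Estimated counts were rounded and tested with edgeR 4.0.16 in R 4.3.3 (filterByExpr with a minimum count of 10, TMM, quasi-likelihood test, genotype as the only term), with Benjamini-Hochberg adjustment over 22259 genes. Standard errors were derived from F, as the size of the log2 fold change over the root of F. For single genes, CPM were also tested by exact two-sided permutation over 924 splits of the pools. Between genes, TPM was compared. The design foresaw estimated counts and was kept. Totals were about equal between pools, with a biological coefficient of variation of 0.171. 

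The genes described sample by sample were, in each role, the 2 members with the highest TPM, the 6 members with the smallest p, up to 4 with no overlap between genotypes (there were 0), up to 4 with an outlying pool by Dixon's ratio, and of the partner lists the 4 with the smallest p and the 4 with the highest TPM. Others, such as lamb4, were chosen after their values were seen. 1 member is counted in the totals and is not reported here. Members and lists were chosen with earlier results of these data known.

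Alternatives were DESeq2 1.42.0, other scalings and filters, limma 3.58.1 on log2 TPM, the replicate number as a block, leaving out each pool and using elmo2-/- pools of only some library numbers. Leaving out both replicate 1 or both replicate 6 pools was added after the data were seen. In simulated data 84.7% of 98 genes with a log2 fold change of 1 in either direction and 95.1% of 102 with 1.5 were recovered among 22106 genes tested, and 10 unchanged genes were called. The simulated counts were drawn independently for each gene, without the shifts that many genes shared in a pool. The recovered shares are therefore no measure of what could be detected in the real pools. There the log2 fold change of -0.93 measured for elmo2 did not pass the same edgeR test. Whether these larvae were raised with PTU, an inhibitor of pigmentation, is not given in the sources used here.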

Additional observations from a re-analysis of the deposited data

Results flagged for a closer look

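For 7 integrin genes a pool stood far above the others of its genotype by Dixon's ratio. The pool was elmo2-/- replicate 1 in 7 cases and elmo2+/+ replicate 1 in 1 case. Of 90 groups of 6 pools 8 were so marked. The threshold is set to mark about 1 in 20 groups of independent, normally distributed values, here 4.5. The members moved together between pools, so the 8 cannot be judged against this number. The share marked over all genes was not computed.

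ITGA8, an RGD-binding subunit, stood at 10.1 CPM in elmo2-/- replicate 1 where the next pool had 6.06, and at 10.8 CPM in elmo2+/+ replicate 1 where the next had 7.39. In elmo2-/- replicate 1, ITGA4 was at 3.56 CPM (next 1.35) and ITGB3 (ENSDARG00000045070) at 1.92 CPM (next 0.529). ITGA1 was at 15.1 CPM in this pool (next 8.66), and ITGB1 (ENSDARG00000104484) at 21.0 CPM (next 12.3). The alpha3 genes ITGA3 and itga3a were at 17.0 CPM (next 11.5) and 9.09 CPM (next 5.73) in the same pool.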

How the results depend on the processing

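Depth was about equal in all pools. The SD of log2 CPM within a genotype had a median of 0.27 over members, against 0.096 for counting error alone, and was above 2 times the counting SD for 31 of 45. In the other members counting error was a larger part of the spread, and the lowest ratio of observed to counting SD was 0.61. With any single pool left out, 0 genes were called at an adjusted p under 0.05, and members were called under none of the alternatives. Genes called at an adjusted p under 0.05 numbered 3 with DESeq2 (elmo2, si:ch211-171h4.7 and ENSDARG00000100939) and 1 with limma on log2(TPM + 1) or log2(TPM + 0.1), elmo2. They numbered 2 with libraries 7 and 8 against the same replicate numbers (si:ch211-121a2.2 and tnfrsf14). These genes are named because the counts are small. The elmo2 log2 fold change passed the threshold with DESeq2 (-0.93, adjusted p = 0.000123), limma with 1 added (-1.17, adjusted p = 0.0327) and limma with 0.1 added (-1.19, adjusted p = 0.0335). Without single pools it ran from -1.01 to -0.86. With limma on TPM 64.2% of all genes had lower values, against 50.2%.

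Members at an unadjusted p under 0.05 numbered 0 to 4 without single pools. There were 4 without elmo2-/- replicate 1 (ITGB3 ENSDARG00000045070, lamc3, lama2 and ITGA4, with 7.25% of all genes). There were 5 with libraries 7 and 8 only (LAMB2, itga2b, LAMB1 ENSDARG00000045524, lamc3 and lama2, with 6.53% of all genes), 7 with these libraries against the same replicate numbers (11.4% of all genes), and 2 without both replicate 1 pools (ITGB3 ENSDARG00000045070 and itgb3bp, with 5.61%). Members with lower values numbered 22 to 38 without single pools and 16 with libraries 13 to 16 only. The laminin median ran from -0.15 to -0.041 and the integrin median from -0.14 to 0.014 without single pools, and the laminin median was -0.33 with libraries 7 and 8 only.

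The deviations of same-numbered pools correlated across genes at 0.62 for number 1 and 0.46 for number 6. For the other numbers the correlations ran from -0.25 to 0.094. Only 4 of 12 pools correlated best with their own number, so the numbers were not taken as pairs. With a replicate block 1445 genes had an unadjusted p under 0.05 and 0 an adjusted one, 1 member did (lama2, adjusted p = 0.734), and itgam.1 turned to 0.0026.

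Over all 45 members, 23 had another sign with libraries 13 to 16 only, 15 without elmo2+/+ replicate 1, 10 without elmo2-/- replicate 6, and 19 in at least 1 fit without a single pool. Every such interval in the comparison of all pools includes 0. Values are given here for the 29 genes described sample by sample. With libraries 13 to 16 only they were 0.0090 for lama4, 0.049 for LAMA5, 0.0083 for LAMB2, 0.021 for LAMB1 (ENSDARG00000101209), 0.0035 for lamc1, 0.065 for ITGA5, 0.037 for ITGA9, 0.035 for ITGA4, 0.067 for ITGB3 (ENSDARG00000056767), -0.026 for itga2.3, 0.028 for ITGBL1, 0.024 for itgb2, 0.13 for itgam.1, 0.067 for ITGA3, 0.096 for ITGA1 and 0.11 for itga3a. Against the same replicate numbers they were 0.032 for LAMA5, 0.021 for ITGB5, -0.029 for itga2.3, 0.0091 for ITGBL1, 0.0018 for ITGA6, 0.22 for itgam.1, 0.0040 for ITGA3 and 0.023 for ITGA1. With libraries 7 and 8 only ITGA10 was at 0.17, and against the same replicate numbers ITGA5 was at 0.048, ITGA10 at 0.50, ITGB1 (ENSDARG00000104484) at 0.053, itgb2 at 0.11 and itga3a at 0.054. Without both replicate 1 pools ITGA10 was at 0.048 and itgam.1 at 0.054, and without both replicate 6 pools LAMA5 was at 0.016, itgam.1 at 0.033 and ITGA1 at 0.0093. The cause of these changes was not tested.

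Without single pools 12 of these 29 genes changed sign, with ranges of -0.094 to 0.015 for LAMA5, -0.091 to 0.035 for ITGA5, -0.41 to 0.094 for ITGA9, -0.27 to 0.039 for ITGB3 (ENSDARG00000056767), -0.20 to 0.034 for ITGA10, -0.077 to 0.0015 for ITGBL1, -0.39 to 0.055 for ITGB1 (ENSDARG00000104484), -0.13 to 0.084 for itgb2, -0.14 to 0.10 for itgam.1, -0.23 to 0.021 for ITGA3, -0.25 to 0.11 for ITGA1 and -0.25 to 0.17 for itga3a.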
